A study of Mus musculus with 28 samples.

Results

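The Mycn locus was described from lists of positions bound by Forkhead proteins in mouse embryonic stem (ES) cells, mapped by ChIP-exo, which trims immunoprecipitated DNA with an exonuclease up to the crosslinked protein. A binding event is a 1 bp position that the authors' caller gave as the point of protein-DNA contact. Mycn (gene ID 18109) lies at chr12:12936093-12941836 of mm10, is 5744 bp long and is transcribed from the minus strand, so its start is at 12941836 and upstream means higher coordinates. The members were the events inside Mycn or within 50 kb of either end, and a wider view took those within 200 kb. There were 102 events within 50 kb and 210 within 200 kb, of 162571 in the 14 lists used. Mycn was chosen by its number of events in these same lists, so its counts are given as a description without a test.

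Mycn encodes N-Myc, a basic helix-loop-helix leucine zipper protein that pairs with Max and binds E-box sequences near genes for growth and ribosome production. It is expressed in ES cells and in embryonic progenitors such as those of the brain and neural crest, and its human counterpart is amplified in neuroblastoma. FoxA1 is a pioneer factor of endoderm and liver that can bind nucleosomal DNA. FoxP3 is known from regulatory T cells, FoxL2 from ovarian granulosa cells and FoxC1 from mesoderm and the eye. The lists hold binding positions and no RNA, so they give neither the level of Mycn RNA nor a check of the labelled cell type by its markers.

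All lines derived from MC1 ES cells of the 129S6/SvEvTac background and carried a Dox-repressible construct at Rosa26 that encodes 1 factor with a His6-FLAG tag and confers puromycin resistance. Dox was present during culture, and its removal, together with a change to differentiation medium, induced the factor. All induced groups therefore differ from 0 h both in the factor and in hours of differentiation. The sources used here do not say whether a line is a single clone. Combined lists at 24 h after Dox removal covered FoxA1 (3 libraries, 2 with anti-FLAG and 1 with anti-FoxA1) and FoxC1, FoxL2 and FoxP3 (2 anti-FLAG libraries each). FoxA1 was also followed at 0, 6, 12, 24 and 48 h with anti-FLAG and with anti-FoxA1, with 1 library and 1 list per time point. The 2 libraries of the empty control line MC1(null) had no list used here. No list had a replicate list beside it, so no value carries a replicate error, and the number of reads behind each list is unknown.

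The DNA just upstream of the start held 1 of the 102 events, in the combined FoxA1 list, 196 bp upstream of the start at 12942032. The sequence of the 250 bp before the start is shown because it is the only stretch of the locus whose bases were given. It covers chr12:12941837-12942086 on the minus strand, from RefSeq's GRCm38.p6 table, and the capitals mark the event and 5 bases on each side.
Mycn upstream 250 bp: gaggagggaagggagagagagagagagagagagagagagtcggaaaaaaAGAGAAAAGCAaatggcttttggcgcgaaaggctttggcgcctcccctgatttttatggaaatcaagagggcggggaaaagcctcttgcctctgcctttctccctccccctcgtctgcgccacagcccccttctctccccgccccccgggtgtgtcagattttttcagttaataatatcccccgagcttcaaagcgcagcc
Its GC content was 54.8%. The Forkhead cores TGTTTAC and TGTTTAT, the alternate core TGTTGAC and the E-box CACGTG, searched on both strands, were not among these bases. Across the same 250 bp upstream of 32851 RefSeq starts, 3.17% held TGTTTAC, 4.16% TGTTTAT, 2.07% TGTTGAC and 6.02% CACGTG. A second combined-list event lay 7 bp inside the start, at 12941829. Both events had a score of 43, the lowest score in the lists, and neither position had an event in any time-course list. The score is the authors' own value for each event, between 43 and 1000, and its scale is not stated. An event of the combined FoxA1 list fell in 1.44% of all RefSeq promoter windows (250 bp before to 50 bp after a start), and the Mycn window held 2.

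FoxA1 had many events around Mycn at 24 h and FoxC1 had none. The combined FoxA1 list had 30 events within 50 kb of Mycn, which is 0.0911% of its 32948 events (Wilson 95% interval 0.0638 to 0.130%, for counting error only). The interval takes events as independent, although these 30 formed 26 places. It also takes no account of the choice of Mycn by its number of events. In that list 74.2% of 21887 protein-coding genes had an event inside or within 50 kb. FoxP3 had 5 events of 4385, where 21.6% of genes had an event. FoxL2 had 2 events of 7244, where 32.3% of genes had an event. FoxC1 had 0 of 1112, a share with a Wilson upper bound of 0.344%, in a list that reached 7.69% of genes, and its nearest event to Mycn was 4066544 bp away. The lists differ in length, and their order near Mycn followed that of their lengths except that FoxP3 had more events than the longer FoxL2 list.

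Few genes had as many events in their window as Mycn in the combined FoxA1 list. In the combined list 5 protein-coding genes had more than its 30: Etl4 (37), Immp2l (34), Irf2bpl (33), Pde4d (32) and Rere (31), which were named after their values were seen. Irf2bpl is 4.11 kb long, close to the length of Mycn, whereas the other four span 340 kb (Rere), 900 kb (Etl4), 932 kb (Immp2l) and 1302 kb (Pde4d), and a longer gene has a longer window. The mean over all genes was 2.62 events and the median 2.0. Per base of the window, 1 gene had a higher density than Mycn in this list. In the time-course lists at 24 h, 132 genes had more FoxA1 events than Mycn with anti-FoxA1 and 182 with anti-FLAG. In the FoxP3 list 46 genes had more than the 5 events of Mycn, with a mean of 0.327 per gene, and in the FoxL2 list 935 genes had more than its 2, with a mean of 0.512.

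**Figure D1:**
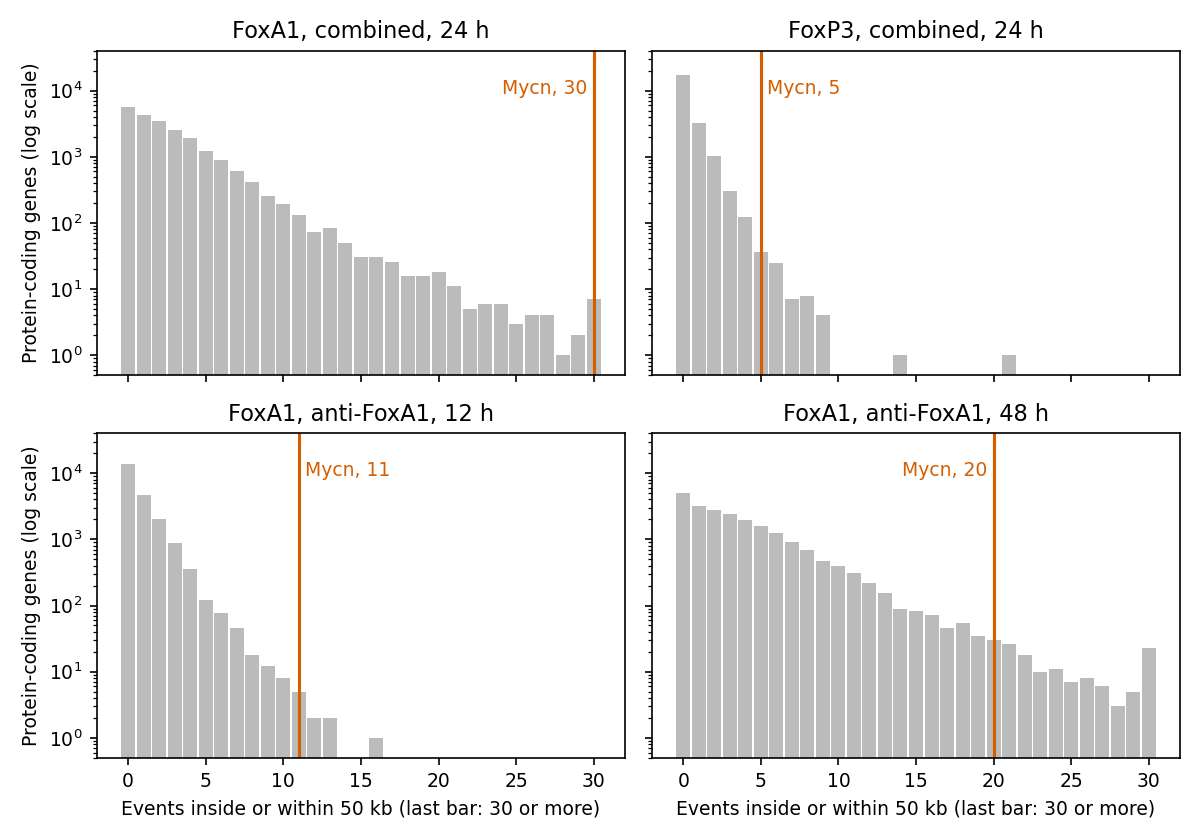
Number of protein-coding genes (log scale) by the number of events inside or within 50 kb of the gene, in 4 lists, with genes of 30 or more events in the last bar and an orange line at Mycn. Mycn sits at 30 events for FoxA1 and 5 for FoxP3 in the combined lists at 24 h, and at 11 and 20 with anti-FoxA1 at 12 and 48 h, in each panel in the thin right part of the distribution.

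The FoxA1 events near Mycn lay on both sides of the gene and inside it. Of the 30, 6 lay inside the gene, 14 upstream and 10 downstream, and 10 of the upstream events were within 10 kb of the start. Neighbouring events were 44 to 34330 bp apart with a median gap of 569 bp. Over the whole list the median gap was 25891.5 bp, and a gene chosen by its number of events has short gaps by that choice. Their median score was 192.5, against 106 over the list. The event farthest from the gene that still counted was 41399 bp away, and the nearest one left out was 72824 bp away, so no event lay just outside the 50 kb limit in this list.

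Some events of different lists fell within 100 bp of each other. Joining the events of all lists that lay within 100 bp of each other gave 33 places within 50 kb. Of these, 14 were seen in 1 list, 7 of them in the combined FoxA1 list, and 7 were seen in 5 or more lists. The 12 places seen in at least 4 lists were 3 to 193 bp wide with a median of 40.5 bp, and 6 of them had all their events within 30 bp. Joining at 100 bp keeps places narrow by rule, and no width for unrelated events was computed, so the widths are a description only. In a grouping made after the positions were seen, with gaps of at most 10 kb, 28 of the places and 84 of the events formed 1 stretch of 32876 bp (12914029 to 12946905) that holds the gene. The 34330 bp above this stretch held no event in any list, and 4 further places with 16 events followed at 12981235 to 12983280.

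**Figure D2:**
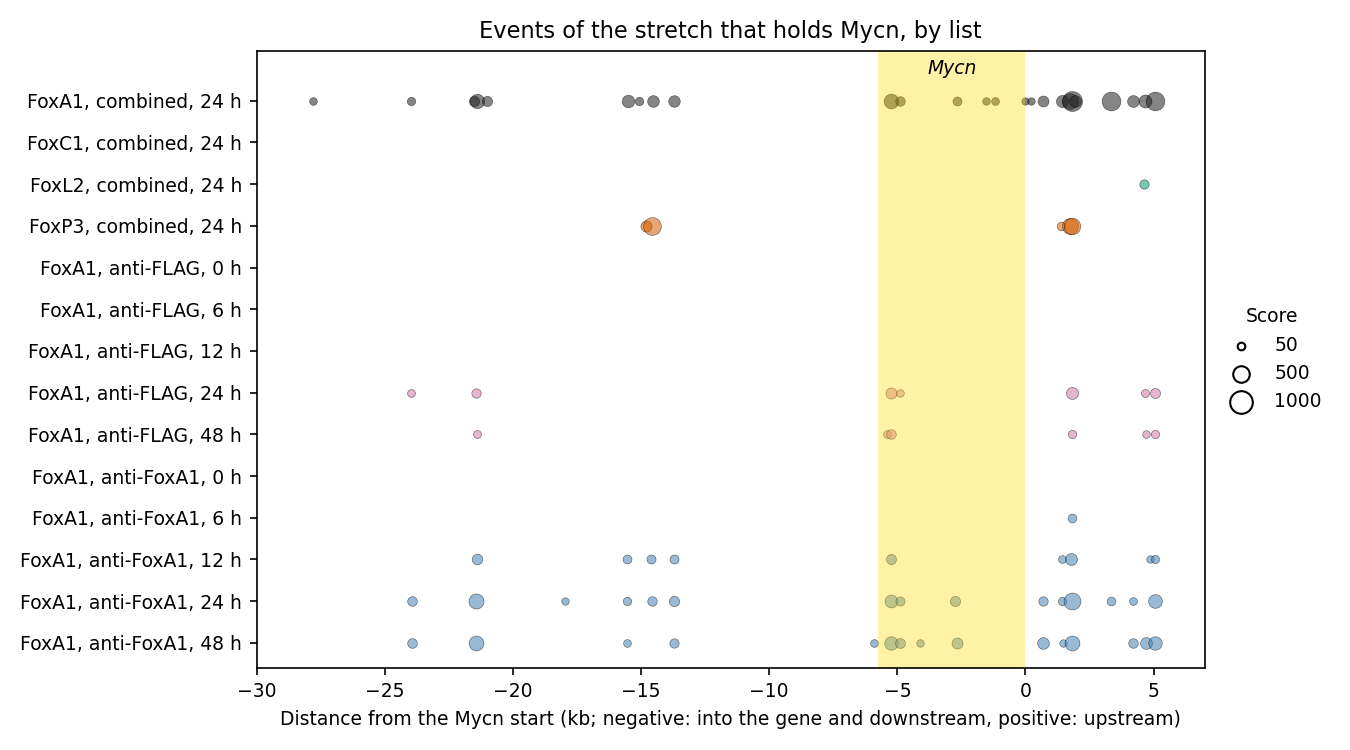
Events of the stretch that holds Mycn, by list, at their distance from the Mycn start in kb (upstream positive, gene shaded), with the area of a circle rising with the score. Events of several lists stack at 1.8 kb and 5.1 kb upstream, at the far end of the gene and 21.5 kb downstream, and FoxP3 events stand at 2 groups of positions.

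The proximal upstream place, 12943571 to 12943764, was seen in 8 lists and for both FoxA1 and FoxP3. The combined FoxA1 list had 3 events there, with scores of 450, 763 and 216. FoxP3 had 2 events, scoring 459 and 499, above 96.2% and 96.9% of its list. The FoxP3 event at 12943669 and the highest FoxA1 event at 12943668 were 1833 and 1832 bp upstream of the start. The anti-FoxA1 course gave scores of 89, 227, 525 and 388 at 6, 12, 24 and 48 h. The anti-FLAG course had no event there up to 12 h and then scores of 228 (24 h) and 72 (48 h). In both courses the score at 24 h was the highest.

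The event at 6 h, 1831 bp upstream of Mycn, was the only one within 50 kb in either course before 12 h. It was 1 of 86 events in the anti-FoxA1 list of that time, of which 23 had a higher score, and 0.626% of genes (137) had an event within 50 kb in that list. Of these genes, 5 had more than 1 event.

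Other places near the start lay up to 5069 bp upstream of it. At 12942536, 700 bp upstream, FoxA1 scored 179 in the combined list and 112 and 211 with anti-FoxA1 at 24 and 48 h. About 1.4 kb upstream, FoxA1 scored 235 and FoxP3 84, and the anti-FoxA1 course gave 56, 71 and 45 at 12, 24 and 48 h. At 12945177 the combined list scored 667 and the anti-FoxA1 list at 24 h 87, and no other list had an event. The place around 12946905, 5069 bp upstream, was in 6 lists, with 660 in the combined list, 69, 319 and 304 with anti-FoxA1 at 12, 24 and 48 h, and 138 and 72 with anti-FLAG at 24 and 48 h. FoxL2 had an event at 12946470, scoring 110, within 49 bp of the FoxA1 event at 12946519, which scored 281.

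Inside the gene the highest scores lay at the end away from the start. The strongest place, 12936581 to 12936608, was seen in 6 lists. FoxA1 scored 382 there in the combined list, 138, 271 and 309 with anti-FoxA1 at 12, 24 and 48 h, and 181 and 117 with anti-FLAG at 24 and 48 h. In all, 18 events of 6 lists fell inside Mycn, at 8 places, and each of the 6 lists was of FoxA1. The gene table gives no exons, so they are not assigned to exon, intron or UTR here.

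Downstream of the gene FoxP3 had its highest score of the locus. The FoxP3 event at 12927275, 14561 bp from the start, scored 588, above 97.7% of its list. FoxA1 scored 214 at this place in the combined list and 98 and 116 with anti-FoxA1 at 12 and 24 h, with no event at 48 h or with anti-FLAG. A second FoxP3 event 235 bp away, at 12927040 with a score of 185, had no FoxA1 event within 100 bp in any list, and it was the only place of another factor within 50 kb without one. Farther downstream, 21.5 kb from the start, FoxA1 scored 149 and 363 in the combined list, 163, 403 and 385 with anti-FoxA1 at 12, 24 and 48 h, and 111 and 59 with anti-FLAG at 24 and 48 h.

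The highest scores within 50 kb stood at a distal upstream place, 12981731 to 12981785, about 39.9 kb from the start. The combined FoxA1 list had 2 events there, both at the ceiling of 1000, where ties hide any order. With anti-FoxA1 the 12 h list had 2 events, scoring 261 and 213, and the scores at 24 and 48 h were 1000. With anti-FLAG the score was 246 at 12 h and 1000 at 24 and 48 h. FoxL2 scored 265 at 12981777, above 95.8% of its list. This was the only place within 50 kb that the anti-FLAG course held at 12 h, and FoxP3 had no event there.

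FoxA1 was listed at 4 of the 5 FoxP3 events within 50 kb and at both FoxL2 events, counting an event within 100 bp, against 42.6% and 18.5% over the whole FoxP3 and FoxL2 lists. Seen from FoxA1, 5 of its 30 events had a FoxP3 event within 100 bp and 3 had a FoxL2 event, against 5.85% and 4.19% over the list. Events that shared a place were counted singly here: the 30 FoxA1 events formed 26 places and the 5 FoxP3 events formed 4. The combined lists thus held 5 places of 2 factors, 3 of FoxA1 with FoxP3 and 2 of FoxA1 with FoxL2. No place was listed for FoxP3 and FoxL2 together. FoxA1 events are dense around a gene chosen by their number, so one within 100 bp is likelier there by that choice. The shares near Mycn and over the lists are therefore a description only.

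More FoxA1 events were listed near Mycn at 24 and 48 h than up to 12 h in both courses, and the lists of these times were longer too. With anti-FoxA1 there were 0, 1, 11, 17 and 20 events within 50 kb at 0, 6, 12, 24 and 48 h, while the lists held 15, 86, 8345, 35134 and 41726 events. With anti-FLAG there were 0, 0, 1, 8 and 7, in lists of 20, 17, 1656, 15984 and 13899. As a share of its list, the count near Mycn was lower at the later times with anti-FoxA1: 1.16% at 6 h (1 event), 0.132% at 12 h, then 0.0484% and 0.0479% at 24 and 48 h. With anti-FLAG it was 0.0604%, 0.0501% and 0.0504% from 12 h on. The share of protein-coding genes with an event within 50 kb was 37.8%, 74.3% and 77.4% with anti-FoxA1 at 12, 24 and 48 h, and 10.5%, 52.8% and 50.3% with anti-FLAG. Each time point was 1 library, so changes in list length between times and between antibodies have no replicate error, and their part in the counts near Mycn was not tested.

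Mycn stood higher in the order of genes at 12 h than at later times with anti-FoxA1. At 12 h 5 genes had more than its 11 events: Zfp97 (16), Jarid2 (13), Zfp960 (13), Gm21119 (12) and Mboat2 (12), again named after their values were seen. At 24 h 132 genes had more than 17, and at 48 h 117 had more than 20. Per base of the window 1, 5 and 2 genes stood above Mycn at these times. With anti-FLAG, 397, 182 and 164 genes had more events at 12, 24 and 48 h.

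By place, 24 of the 33 were in the anti-FoxA1 course and 9 in the anti-FLAG course, with 8 in both. The anti-FoxA1 course first listed 1, 9, 8 and 6 of them at 6, 12, 24 and 48 h. The anti-FLAG course first listed 1, 7 and 1 at 12, 24 and 48 h. Of the 8 places in both, 4 were listed earlier with anti-FoxA1, 3 at the same time and 1 earlier with anti-FLAG. That last place is the one 4.7 kb upstream, with scores of 60 and 48 with anti-FLAG at 24 and 48 h and 220 with anti-FoxA1 at 48 h.

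**Figure D3:**
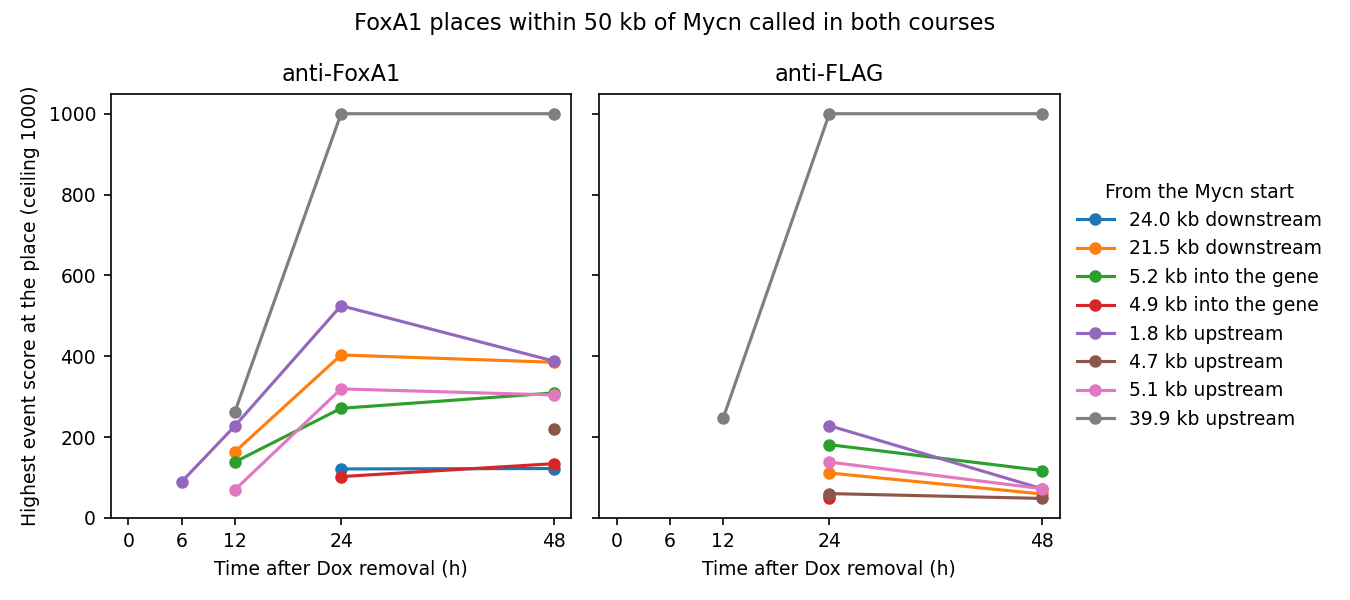
Highest event score at the 8 places within 50 kb of Mycn that both FoxA1 courses held, by hours after Dox removal, for anti-FoxA1 (left) and anti-FLAG (right), with 1 library per point and no point where no event was listed. The place 39.9 kb upstream is at the ceiling of 1000 from 24 h on with both antibodies, and the place 1.8 kb upstream is the only one with a point at 6 h.

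Most events of one time were listed again at the next. With anti-FoxA1, 10 of the 11 events within 50 kb at 12 h had an event within 100 bp at 24 h (89.2% over the whole list), and 14 of the 17 at 24 h had one at 48 h (72.0% over the list). Looking back, 9 of the 17 events at 24 h had one at 12 h, against 22.6% of all events at 24 h. With anti-FLAG, 6 of the 8 events at 24 h had one at 48 h (61.3% over the list). Between antibodies, 7 of the 8 anti-FLAG events at 24 h had an anti-FoxA1 event (86.0% over the list), and 7 of the 17 anti-FoxA1 events had an anti-FLAG event (40.5%). Of the 30 events of the combined list, 20 had an event in the anti-FoxA1 course at 24 h and 11 in the anti-FLAG course at 24 h, against 54.8% and 33.0% over the list. Mycn was chosen by its number of events in these lists, so an event within 100 bp is likelier near it by that choice. These shares are a description only.

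The wider view added a second dense stretch. Mycn is the only protein-coding gene within 200 kb: its nearest protein-coding neighbours, named for their position alone, are Ddx1, an RNA helicase gene 277471 bp upstream, and Cyria, 555128 bp downstream. Within 200 kb there were 68 places in 11 stretches. A stretch of 36173 bp (12778658 to 12814831), 127005 to 163178 bp downstream of the start, held 19 places and 72 events, of which 71 were of FoxA1 and 1, with a score of 47, of FoxP3. Its strongest place, 12791804 to 12791866, scored 1000 in the combined list. With anti-FoxA1 it scored 491 at 12 h and held 2 events at each later time, with 895 and 630 at 24 h and 262 and 550 at 48 h. With anti-FLAG its scores were 215 and 1000 (12 and 24 h), and 192 and 293 for its 2 events at 48 h. A neighbour at 12810530, 131306 bp downstream, scored 437 in the combined list and 125, 772 and 1000 as its highest with anti-FoxA1 at 12, 24 and 48 h. With anti-FLAG this neighbour scored lower, with 137 and 77 for its 2 events at 24 h and 185 at 48 h.

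Within 200 kb, 54 places were in the anti-FoxA1 course, 22 in the anti-FLAG course and 20 in both. Of the 20, 12 were listed earlier with anti-FoxA1, 7 at the same time and 1 earlier with anti-FLAG. The combined lists held 6 places of 2 factors, 5 of them within 50 kb.

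Of 8 noncoding genes or pseudogenes of the gene table in this range, 3 had events in them or within 1 kb. The share over all noncoding genes and pseudogenes was not computed, so this count is a description only. Gm35155 (lncRNA, 12828050 to 12829248) held 7 FoxA1 events of 6 lists at 2 places, the strongest scoring 321 at 48 h with anti-FoxA1. Gm35298 (lncRNA) held 1 event, and Gm40271 (lncRNA) had 1 within 1 kb. The lncRNAs Gm35104, Gm35208 and Gm35350 and the pseudogenes Rpl36-ps3 and Gm48201 held none and had none within 1 kb.

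**Figure D4:**
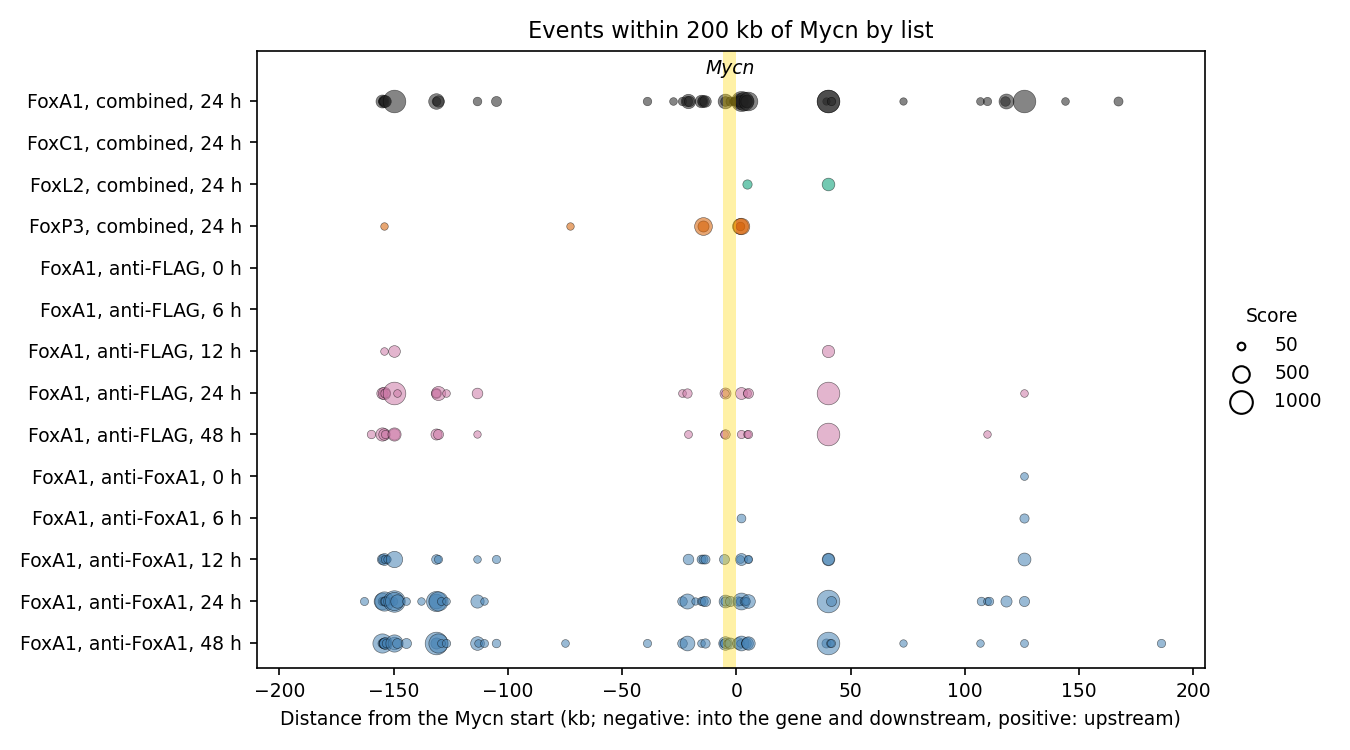
Events within 200 kb of Mycn in the 14 lists, at their distance from the Mycn start in kb (upstream positive, gene shaded), with the area of a circle rising with the score. FoxA1 events of both courses and of the combined list gather around the gene, near 40 kb upstream and between 127 and 163 kb downstream, and the FoxC1 row is empty.

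Mycn was set beside 19 other genes of the MYC network, which are MYC family members, their partner Max, the MXD and MLX relatives that also dimerise with Max or Mlx, cofactors, and regulators of MYC protein stability. All 20 had a combined FoxA1 event within 50 kb, where 74.2% of all genes did, with a median of 4.0 events against 2.0. Without Mycn, which was chosen for its events, 19 of 19 had one. A longer gene has a longer window, and gene length was not matched in these comparisons. Fbxw7 (164 kb), Mga (97.6 kb) and Trrap (92.0 kb) are long members. Mycn was first with 30. The next were Mxi1, a repressor that competes for Max, and Mga, a Max partner, with 9 each, then Myc with 8. For FoxP3, 12 of the 20 had an event, or 11 of 19 without Mycn (21.6% of all genes). Mycn had 5, followed by Max and Trrap, a subunit of acetyltransferase complexes, with 2 each.

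For FoxL2, 11 of the 20 had an event, or 10 of 19 without Mycn (32.3% of all genes). Fbxw7, the ubiquitin ligase subunit that targets MYC proteins for degradation, had 5, Mga 4, and Mycn and Mnt 2 each. For FoxC1, 3 of the 20 had an event (7.69% of all genes): Mxd1, Mnt and Mlxipl, with 1 each. With anti-FoxA1 at 6 h (0.626% of all genes) Mycn was the only gene of the 20 with an event. Later in that course 9, 20 and 20 of them had one at 12, 24 and 48 h, where 37.8%, 74.3% and 77.4% of all genes did. With anti-FLAG 3, 17 and 16 had one at these times, where 10.5%, 52.8% and 50.3% of all genes did. The counts at 12 h, 9 and 3 of 20, were near these shares. Myc, which like Mycn is a short gene, had 0, 2, 6 and 2 events with anti-FoxA1 at 6, 12, 24 and 48 h, where Mycn had 1, 11, 17 and 20. Mycl, also short at 6.90 kb, had 0, 2, 4 and 9 at these times. Mxi1, at 63.2 kb, had 0, 2, 13 and 19.

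**Figure D5:**
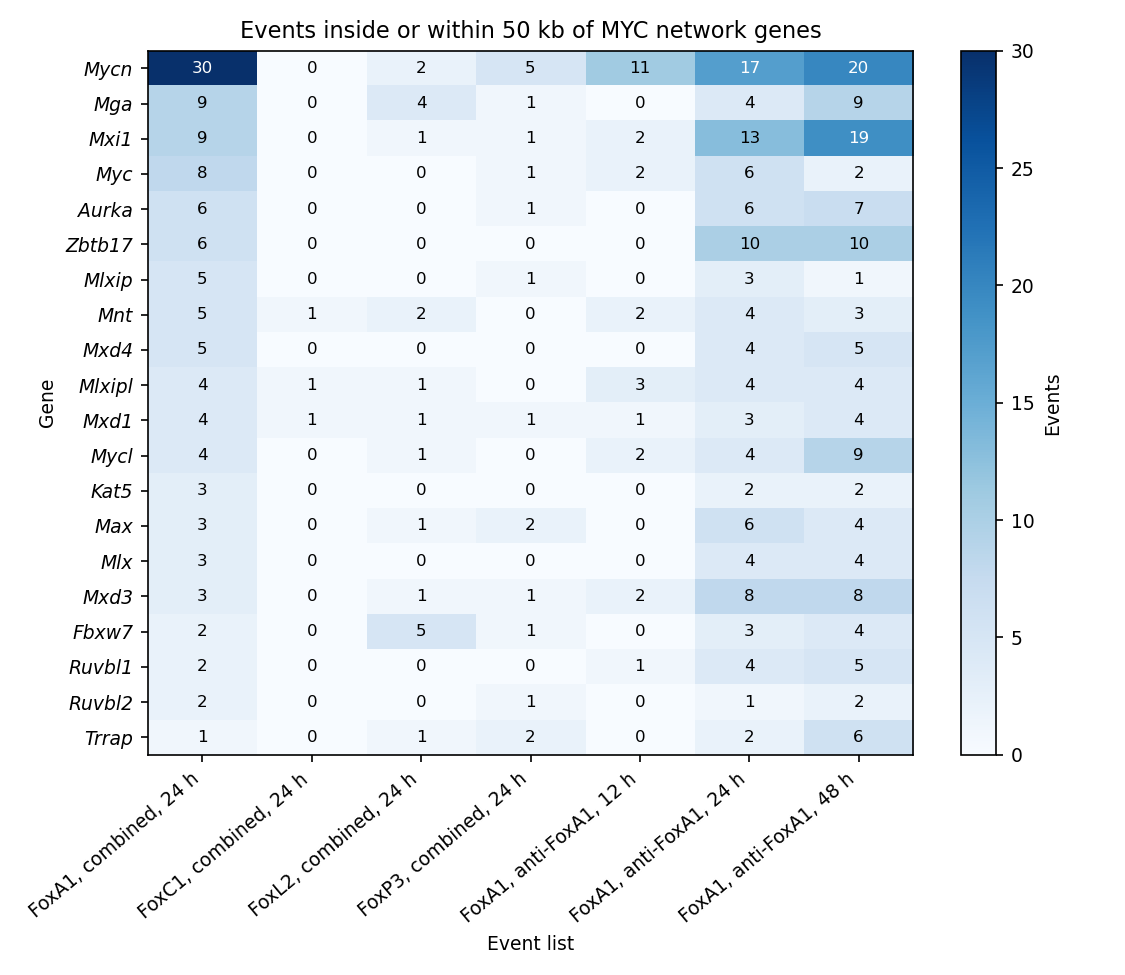
Events inside or within 50 kb of each of the 20 MYC network genes in 7 lists, with the number of events printed in each cell and shown by colour. Mycn has the highest count in each column other than FoxC1, where it has 0, and FoxL2, where Fbxw7 (5) and Mga (4) are above it.

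The genes whose counts were most like those of Mycn were found by the summed absolute difference in events over the 14 lists. They were Immp2l (16), Dock4 (17), Arhgap26 (18), Pigl (19) and Nmnat2 (22), against a median of 93 over all genes. Counts were not scaled by the length of the window. Immp2l is 932 kb long and Mycn 5.74 kb, so like counts do not mean a like density of events. Immp2l had 34 combined FoxA1 events, 2 of FoxL2, 5 of FoxP3 and 2 of FoxC1, and with anti-FoxA1 it had 0, 4, 17 and 21 at 6, 12, 24 and 48 h. Its count at 12 h was the largest difference from Mycn, which had 11. None of the 5 had an event at 6 h with either antibody. Most events of the sum come from the long FoxA1 lists, which share 1 cell line, so the likeness is a description only.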

How the data were processed

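Per the submitters' processing notes, the tools were BWA 0.7.17-r1188, SAMtools and Picard, with mm10 as the genome. ChExMix called the events, per the file headers. The sources used here give neither its settings and controls nor the way libraries were merged. Each deposited event carries a score from 43 to 1000, whose scale is not stated. Combined lists name only a factor and were taken to hold its libraries. Groups and times came from the sample titles. Some items of the series are not reported here.

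Gene positions came from RefSeq's GRCm38.p6 table (21887 protein-coding genes), strand and promoter bases from its promoter table, the same build as mm10. Events were counted inside or within 50 and 200 kb of Mycn, and joined into places at 100 bp. Genes were ranked in lists of at least 20 events. Named genes were Mycn, genes within 200 kb, up to 4 MYC network genes a list by most events, and the 5 most similar genes; the nearest protein-coding neighbours and genes with more events than Mycn were named outside this rule. Members and lists were chosen with earlier results of these data known, and no test was run. Depth is unknown: precision is given as Wilson 95% intervals for counting error only, which take events as independent and ignore the choice of Mycn. Alternatives were other windows, joining distances and score limits, removal of events near those of 0 h or in runs (5 or more events spaced 500 bp or less), and the anti-FoxA1 list for FoxA1. The counting was tested on simulated data. Python 3.11.15, NumPy 2.4.6, SciPy 1.17.1 and matplotlib 3.10.9 were used.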

Additional observations from a re-analysis of the deposited data

How the results depend on the processing

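Counts and ranks around Mycn were recomputed under other settings, and 33 of the 49 alternative values of the main results stayed within 1.5 times the count, or for ranks within the 95% interval of the share. Some of these could not move. The FoxC1 rank stayed at 0 because Mycn had no FoxC1 event in any of these windows. Removing events near those of 0 h could not change the count, since no 0 h event lay within 50 kb. With events at or above each list's 75th percentile, 40 of the 102 events within 50 kb were left and the event at 6 h was lost. At or above the list median, there were 20 of 33 places within 50 kb, 35 of 68 within 200 kb and 12 of 20 held by both courses. The percent of genes with fewer events than Mycn was 99.97 for FoxA1, 99.62 for FoxP3 and 88.41 for FoxL2. For FoxA1 it became 99.93 with a 100 kb window, 99.995 at or above the list median score and 99.99 by events per base, an alternative chosen after seeing the data. For FoxP3 it became 99.83 with a 20 kb window, 99.895 at or above the median score and 99.91 per base. For FoxL2 it became 79.31 with a 20 kb window, 78.40 with 100 kb, 95.29 at or above the median score and 96.21 per base. With a 20 kb window the 1 anti-FLAG event at 12 h was lost, and so were all 3 MYC network genes of that list. With this window 1 MYC network gene in place of 3 had a FoxC1 event, and 6 in place of 11 a FoxL2 event. Of 140 values for single lists, 43 moved and 97 did not, and the 97 include values of lists with 0 events near Mycn, which stayed at 0. No paired analysis was possible because the combined lists cannot be split by library and no result comes from a test. For the same reason no library could be left out. Depth limits the absence of an event, since reads per list are unknown.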

Other observations

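A place 125725 bp upstream of the Mycn start, 13067559 to 13067574, was listed before induction. The anti-FoxA1 list at 0 h held 15 events in all, and 1 of them, with a score of 57, lay at 13067561. With anti-FoxA1 the place scored 106, 277, 146 and 61 at 6, 12, 24 and 48 h, above 74.4%, 94.6%, 70.8% and 26.3% of each list. With anti-FLAG it was listed at 24 h alone, with a score of 51. The combined FoxA1 list gave it 1000. Of the 15 events at 0 h, 6 had an event within 100 bp at 6 h, 15 at 12 and 24 h and 14 at 48 h with anti-FoxA1, and 0, 6, 12 and 8 with anti-FLAG at 6, 12, 24 and 48 h. No list of the empty control line was used here, so the background at this place in cells without the transgene is not given.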
